A study of Mus musculus with 3 samples.

Results

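The 10 keratin genes Krt17, Krt7, Krt8, Krt18, Krt19, Krt20, Krt23, Krt14, Krt5 and Krt80 were read from every probe that carries one of these names on the array, 13 probes in all, out of 36335 gene names measured. They were chosen by the processed signals of these same arrays, in which Krt17 stood out, together with other epithelial keratins, so the values below are a description and support nothing by their size. The cells were mpkDCT, a mouse line of the distal convoluted tubule of the kidney, made knockout for Cyp27b1 with CRISPR-Cas9 in every group. Cyp27b1 encodes the enzyme that adds the 1α-hydroxyl group to calcidiol to form calcitriol, which binds the vitamin D receptor far more tightly. One group received 1,25(OH)2D3 (calcitriol) at 1e-07 M, another 25(OH)D3 (calcidiol) at 1e-07 M, and the last vehicle, each for 24 h in medium without phenol red and with 2% charcoal-stripped serum, which the cells had entered 24 h earlier. Each group was 1 RNA sample on 1 array, so there is no spread between cultures and no p-value, and values written with ± carry only a technical error, which the scanner software computes for each spot. The tag siCT in every title is left unexplained by the labels, as is whether the knockout cells were 1 clone. The description of the calcidiol sample once writes 25(OH)2D3, while its treatment label gives 25(OH)D3.

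Keratins are the intermediate filament proteins of epithelia. A filament needs an acidic type I keratin and a basic type II keratin in equal amounts, and each kind of epithelium makes characteristic pairs. Krt8 (type II) and Krt18 (type I) form the filaments of simple epithelia such as kidney tubules, joined by Krt7 (type II) and Krt19 (type I) in ducts and by Krt20 (type I) in gut and urothelium. Krt5 (type II) and Krt14 (type I) form the filaments of basal cells in stratified epithelia. Krt17 is a type I keratin of hair follicles and other skin appendages that is switched on in wounded or stressed skin.

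The arrays read these genes with 60-base probes, and the stretches of probe that carry the 3 largest differences are shown because each of these genes rests on a single probe. Coordinates are on mm9, the build of the array design, and bases run 5′ to 3′. The Krt17 probe lies at chr11:100117584-100117643 on the minus strand, the Krt20 probe at chr11:99289776-99289835 on the minus strand, and the Krt7 probe at chr15:101253718-101253777 on the plus strand. The last 30 bases are given for Krt17 and Krt20 and the whole probe for Krt7, and the capitals mark ATTAAA, a variant of the polyadenylation signal.
Krt17: tgcttgagaccATTAAAgcttgctgacctg
Krt20: gggttcagttaagagcaaaactagcctgga
Krt7: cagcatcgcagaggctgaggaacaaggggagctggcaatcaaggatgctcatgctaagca

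A RefSeq promoter (GRCm38.p6, 250 bases before to 50 bases after the gene's start) was matched for 7 of the 10 genes, all but Krt17, Krt19 and Krt80. The promoters of Krt20 (chr11:99438104-99438403, minus strand) and Krt7 (chr15:101412153-101412452, plus strand) are shown because both genes were higher with calcitriol. Capitals mark AGGTCA, the hexamer that nuclear receptors bind, and TATAAA, the TATA box.
Krt20: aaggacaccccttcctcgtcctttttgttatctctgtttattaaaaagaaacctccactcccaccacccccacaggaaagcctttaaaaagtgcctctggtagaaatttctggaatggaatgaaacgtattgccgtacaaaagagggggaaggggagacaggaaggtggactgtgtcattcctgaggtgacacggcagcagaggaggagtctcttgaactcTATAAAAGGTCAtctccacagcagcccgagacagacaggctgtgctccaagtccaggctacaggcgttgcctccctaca
Krt7: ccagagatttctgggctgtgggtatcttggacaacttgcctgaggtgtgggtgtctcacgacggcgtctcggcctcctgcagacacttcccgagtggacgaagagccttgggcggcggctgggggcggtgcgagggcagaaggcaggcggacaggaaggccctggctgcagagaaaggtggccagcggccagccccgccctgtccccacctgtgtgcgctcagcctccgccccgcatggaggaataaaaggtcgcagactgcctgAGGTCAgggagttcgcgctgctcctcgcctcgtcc

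AGGTCA on either strand was found in 5 of the 7 promoters. In that of Krt20 it begins at -23, directly after a TATAAA that begins at -29. In that of Krt7 it begins at 16 after the start. The others were those of Krt8, Krt18 and Krt5, genes with no probe well above background on any array. Among all 32851 promoters in the table, 16.3% hold AGGTCA on either strand and 8.32% hold TATAAA on the gene's strand. The DR3 consensus, in which the vitamin D receptor and its partner RXR bind a pair of hexamers 3 bases apart, was found on either strand in 0 of the 7 promoters and in 0.0396% of all. The hexamer GGTTCA (10.4% of all promoters) and the AP-1 motif TGANTCA (7.81%), each on either strand, were also found in 0 of the 7. A match is a description of the letters in this window, and a lack of one says nothing of sites elsewhere.

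The samples were first checked against their labels. The Cyp27b1 probe was well above background on 0 arrays, at processed signals of 7.05 with calcitriol, 3.82 with calcidiol and 2.91 with vehicle, and since its place relative to the edit is unknown here, it says nothing on the knockout. Cyp24a1, the vitamin D 24-hydroxylase and a classic target of the receptor, had signals of 5443 with calcitriol, 289 with calcidiol and 2.68 with vehicle. The vehicle spot had only a bound, so the gene was at least 398-fold higher in calcitriol cells and at least 20.0-fold higher in calcidiol cells. These bounds set the bright array against the lowest signal well above background on the dim one. Vdr, the vitamin D receptor, was well above background on all 3 arrays. Among genes listed as markers of kidney epithelium, Cdh16, Pax8, Pax2 and Ezr were well above background on all 3 arrays, whereas Cdh1 and Epcam were not on any. Of 7 distal convoluted tubule markers only Wnk1 was well above background on all 3 arrays. Pvalb was on both hormone arrays, at 20.1 with calcitriol and 18.8 with calcidiol, but not with vehicle, at 12.8. Its calcidiol signal was under the highest negative control spot on that array, 33.8. Slc12a3, the thiazide-sensitive cotransporter that defines this segment, was well above background on none, with signals of 5.84, 3.88 and 5.74 for calcitriol, calcidiol and vehicle. Spots well above background made up 49.92%, 49.7% and 50.98% on the 3 arrays in that order, and no spot was saturated.

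Krt17 was the keratin with the largest difference. Its processed signal was 2370 ± 237 with calcitriol, 424 ± 42.5 with calcidiol and 18.4 ± 3.34 with vehicle. The hormone arrays stood far above vehicle and the calcitriol array above the calcidiol array. Relative to vehicle, after each array was scaled to its 75th percentile, Krt17 was 126-fold higher with calcitriol (log2 difference 6.98 ± 0.30). With calcidiol it was 21.4-fold higher (4.42 ± 0.30). These were the highest of 16654 and of 16648 genes well above background on both arrays compared. Genes not well above background with vehicle are outside this ranking. Among them is Cyp24a1, which was at least 398-fold higher with calcitriol, more than Krt17. In bulk RNA, more cells expressing a gene and more RNA per cell cannot be told apart. The Krt17 spot lay 44 rows or columns from the array edge.

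The size of the Krt17 difference turns on the vehicle spot. Before any correction that spot read 92.6 against a local background of 61.0, whereas the raw reading was 2614 against 61.0 with calcitriol and 499 against 59.0 with calcidiol. The vehicle signal of 18.4 was close to the lowest signal well above background on that array, 13.4, and above all 308 negative control spots there, whose highest signal was 5.94. With an offset of 32 added before the log, the log2 difference was 5.57 with calcitriol and 3.10 with calcidiol. With normexp background correction it was 4.96 and 2.49. Krt17 was thus more than 2-fold higher with each hormone under these settings, while the size of the fold moved with them.

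Krt20, a type I keratin of gut lining and of the outer cells of the urothelium, was the other keratin at least 2-fold higher with both hormones. Its processed signal was 969 ± 96.9 with calcitriol, 891 ± 89.1 with calcidiol and 201 ± 20.3 with vehicle. Here the hormone arrays were close together and both stood clear of vehicle, which was itself far above background. The log2 difference from vehicle was 2.23 ± 0.21 with calcitriol and 2.04 ± 0.21 with calcidiol, or 4.70-fold and 4.10-fold higher. Over 10 other ways of processing the same arrays the calcitriol difference lay between 2.01 and 2.36 and the calcidiol difference between 1.72 and 2.06. Those that change only filters, probe means, outliers or the edge could not move a single unflagged probe away from the edge. All 3 spots were far above background, and the differences moved little.

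Krt7, the type II keratin of ducts, had signals of 96.9 ± 10.1 with calcitriol, 45.7 ± 5.82 with calcidiol and 23.8 ± 3.64 with vehicle. The 3 arrays were graded, with calcidiol between the others. The log2 difference from vehicle was 1.99 ± 0.27 with calcitriol, 3.98-fold higher, and 0.83 ± 0.29 with calcidiol, under 2-fold. All of these signals are dim. The calcitriol difference was 1.20 with an offset of 32 and 0.95, under 2-fold, with normexp background correction.

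Krt80, a type II keratin of epithelial cells, gave no single direction. One probe (chr15:101178889-101178948) read 74.7 ± 8.32 with calcitriol, 115 ± 12.2 with calcidiol and 109 ± 11.4 with vehicle. A second probe (chr15:101180014-101180073) read 85.4 ± 8.99 with calcitriol, 80.4 ± 8.89 with calcidiol and 53.2 ± 5.98 with vehicle. With calcitriol the first probe was lower than vehicle, at a log2 difference of -0.58 ± 0.22, and the second higher, at 0.65 ± 0.22. With calcidiol they were at -0.04 ± 0.21 and 0.48 ± 0.23, and the remaining probe, at chr15:101187365-101187424, read well above background on 0 of the 3 arrays. The mean over the measured probes was 0.04 with calcitriol and 0.22 with calcidiol.

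The remaining 6 genes, Krt8, Krt18, Krt19, Krt23, Krt14 and Krt5, had no probe well above background, so no fold is given for them. Their 7 probes read between 2.83 and 4.34 with calcitriol, between 3.42 and 7.89 with calcidiol and between 2.62 and 10.2 with vehicle. The Krt18 probe read 2.85 with calcitriol, 6.42 with calcidiol and 2.71 with vehicle. The first Krt8 probe read 4.34, 7.82 and 6.68 and the second 2.83, 7.89 and 10.2, in the order calcitriol, calcidiol and vehicle. The keratins that define simple tubular epithelium were thus not measured above background by these probes in cells labelled as tubule cells, and the basal partners Krt5 and Krt14 were not either. Krt19 read 2.99, 3.81 and 2.92 on the same 3 arrays and Krt23 3.20, 3.93 and 2.98. Krt14 read 3.62, 5.42 and 4.37, and Krt5 3.45, 3.42 and 2.62, the last from a spot 3 rows or columns from the array edge. How well each probe matches its transcript was not analysed here.

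**Figure D1:**
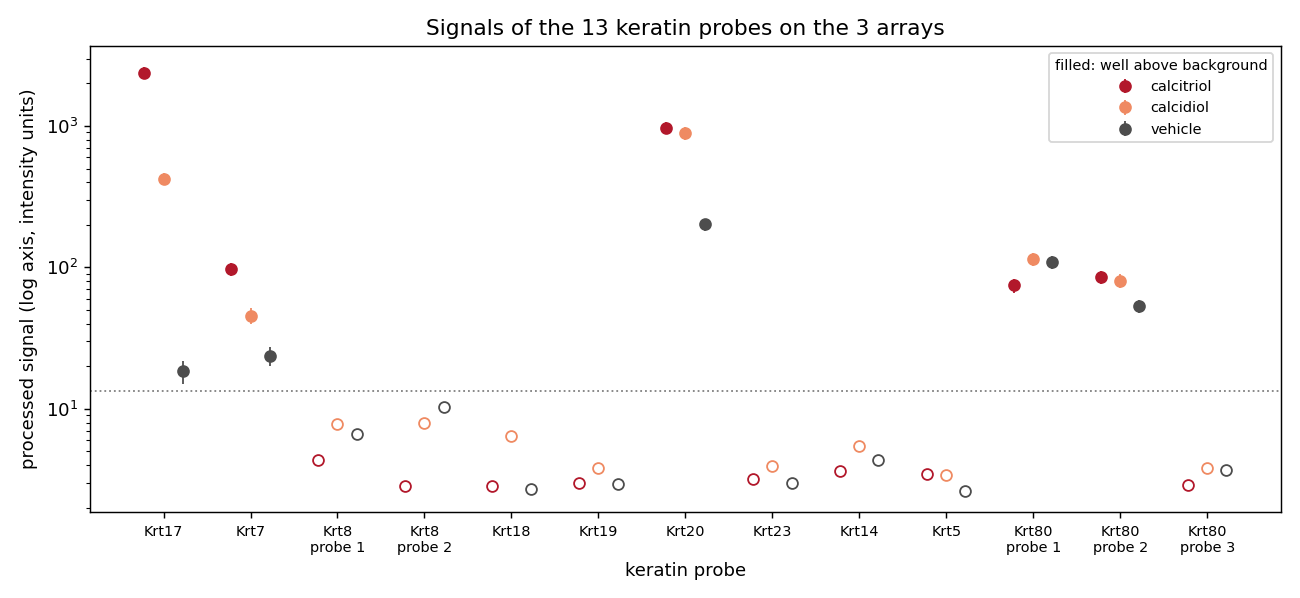
Processed signal of the 13 keratin probes on the calcitriol, calcidiol and vehicle arrays, 1 array each, on a log axis. Filled points are well above background, with the technical error as a bar, open points are not, and the dotted line is the lowest signal well above background on the vehicle array, 13.4. Krt17 and Krt7 differ on all 3 arrays, Krt20 is higher on both hormone arrays than on vehicle, 2 Krt80 probes read above background, and the remaining Krt80 probe and all probes of the other 6 genes lie under the line.

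With calcitriol, 3 of the 4 measured keratin genes were at least 2-fold higher than vehicle and 0 were lower, where 0.961% of all 16654 genes were higher and 1.63% were lower. With calcidiol, 2 of the 4 were higher and 0 lower, where 0.853% of 16648 genes were higher and 0.144% were lower. The median log2 difference of the 4 was 2.11 with calcitriol and 1.43 with calcidiol, beside -0.004 and -0.01 over all genes. These genes were picked with such differences in view, so the shares describe them and nothing is read from the contrast with the background. Krt7 ranked 46 and Krt20 37 from the highest with calcitriol, and Krt7 ranked 227 and Krt20 19 with calcidiol.

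The compounds were then compared directly in these 4 genes, at the same dose and time. Calcitriol carries the 1α-hydroxyl group that calcidiol lacks. Between the compounds Krt17 was 5.90-fold higher in calcitriol cells, at a log2 difference of 2.56 ± 0.20. Both signals were bright, and the difference stayed between 2.47 and 2.75 over the other scalings, background corrections and the deposited value table. The remaining alternatives change filters, probe means, outliers or the edge. They leave a single unflagged probe away from the edge as it was, so they could not move it. Krt7 was 2.24-fold higher with calcitriol, at 1.16 ± 0.24, but under 2-fold at 0.78 with an offset of 32 and at 0.67 with normexp background correction. For Krt20 the compounds were at 0.20 ± 0.20, with a technical 95% interval from -0.20 to 0.60, which does not show that they act alike. The Krt80 probes were at -0.54 ± 0.22 and 0.17 ± 0.22. Krt17 and Krt7, 2 of the 4, thus passed 2-fold between the compounds and 0 were lower, where 0.467% of 16500 genes were higher and 1.41% were lower. As a share of the calcitriol difference on the log2 scale, the calcidiol difference was 0.911 for Krt20, 0.633 for Krt17 and 0.417 for Krt7. Both differences use the same vehicle array, so its error enters each side of these ratios. The Krt17 and Krt7 vehicle spots were dim, so their shares moved with the treatment of low signals. With normexp the calcitriol and calcidiol differences were 4.96 and 2.49 for Krt17 and 0.95 and 0.28 for Krt7.

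The rest of the keratin family was read in the same way. Of 45 other keratin genes with 56 probes, 36 were well above background on 0 arrays and 7 on all 3. Among these 7 none was 2-fold apart from vehicle with either hormone. Of all genes 0.961% were higher and 1.63% lower with calcitriol, and 0.853% and 0.144% with calcidiol, so 0 of 7 is near these shares. The log2 differences of the 7 lay between -0.39 and 0.61 with calcitriol and between -0.56 and 0.54 with calcidiol. Krt10, a type I keratin of suprabasal skin cells, read 490 with calcitriol, 517 with calcidiol and 484 with vehicle, with differences of -0.01 ± 0.20 and -0.01 ± 0.20 from vehicle. Krt16, a type I keratin that skin switches on together with Krt17 after wounding, read 32.2, 41.1 and 26.2 on these arrays and differed from vehicle by 0.26 ± 0.30 with calcitriol and 0.54 ± 0.30 with calcidiol. Thus the wound keratin next to Krt17 stayed within 2-fold, although its spot was dim and lay 4 rows or columns from the array edge.

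Krt79, a type II keratin of hair canal and sebaceous gland cells, was the highest of the other keratins with calcitriol, at 0.61 ± 0.24, and was at -0.02 ± 0.26 with calcidiol. Its signals were 63.7 with calcitriol, 43.6 with calcidiol and 40.9 with vehicle. Krt85, a hair keratin, was the lowest with calcitriol, at -0.39 ± 0.20, and Krt83, another hair keratin, the lowest with calcidiol, at -0.56 ± 0.33. The Krt83 signal with calcidiol, 22.4, was under the highest negative control spot on that array, 33.8. Its difference came as near to vehicle as -0.18 under the alternatives, so its place as the lowest is weak. Krt222 was at -0.14 ± 0.20 with calcitriol and -0.36 ± 0.20 with calcidiol. Krt31, also a hair keratin, was at -0.09 ± 0.34 and -0.01 ± 0.36, and its calcidiol signal of 23.95 was under the same control spot. Krt81 was well above background with calcitriol alone, at 21.5, and by its bound was at least 1.57-fold higher than vehicle. Krt86 was well above background with calcidiol alone, at 21.3, and by its bound was at least 1.48-fold higher than vehicle. That signal was under the highest of the 308 negative control spots on the calcidiol array, 33.8, whose median was 3.79, so the bound is weak. Krt6a and Krt6b, type II partners of Krt17 in skin appendages, stayed below that mark on all arrays, and Krt6a read 8.57 with calcitriol, 8.36 with calcidiol and 10.73 with vehicle.

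**Figure D2:**
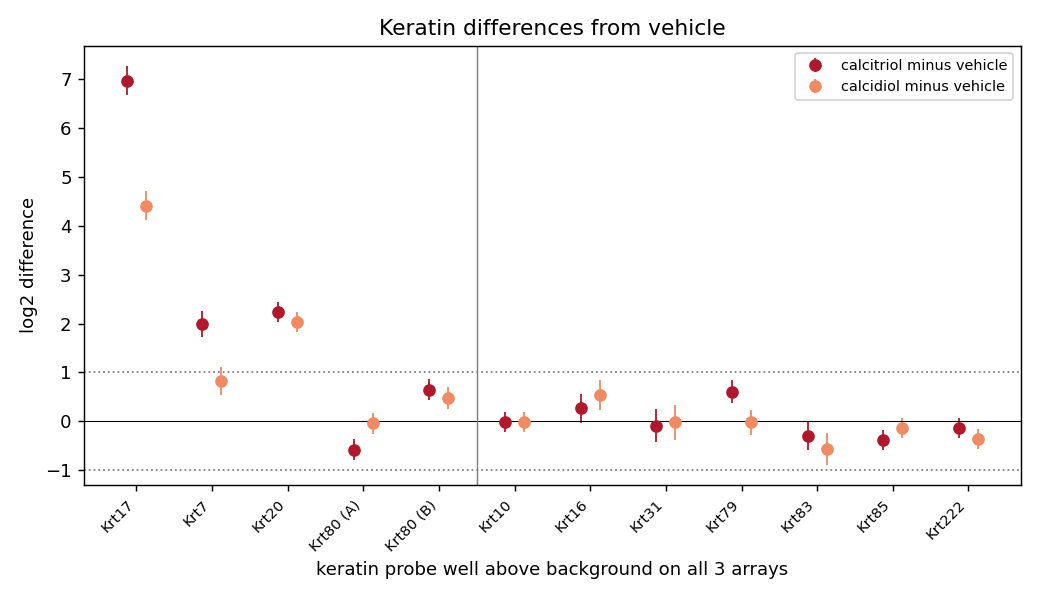
Log2 difference of calcitriol and of calcidiol from vehicle for each keratin probe well above background on all 3 arrays, with technical errors as bars and 2-fold as dotted lines. Left of the vertical line are the genes chosen here, with both measured Krt80 probes, and right of it the 7 other keratins, all within 2-fold.

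Krt17 lies in the type I keratin cluster of chromosome 11, so the genes around it were read by the coordinates of their probes. Within 250 kb of the Krt17 probe lay 44 other probes for 29 genes, of which 16 were well above background on all 3 arrays and 26 on none. In the cluster itself Krt14, Krt15, Krt19, Krt13, Krt9 and Krt42 had no probe well above background. With calcitriol 17 neighbouring probes were measured, 0 of them 2-fold higher and 1 lower, where 0.961% of all genes were higher and 1.63% lower. Their log2 differences lay between -1.06 and 0.30. With calcidiol 16 were measured, 0 of them 2-fold higher or lower, where 0.853% of all genes were higher and 0.144% lower. The range was from -0.50 to 0.54. With so few probes, nothing is read from these counts beside the shares. The nearest measured probe was that of Krt16, and the nearest measured one outside the keratin family belonged to Eif1, a translation initiation factor gene, at -0.04 and 0.08 with calcitriol by its probes. Jup, which encodes the desmosomal plaque protein plakoglobin, was lower by all 3 of its probes with calcitriol, at -1.06, -0.47 and -0.66, the first from a dim spot at 15.8 with calcitriol and 32.2 with vehicle.

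**Figure D3:**
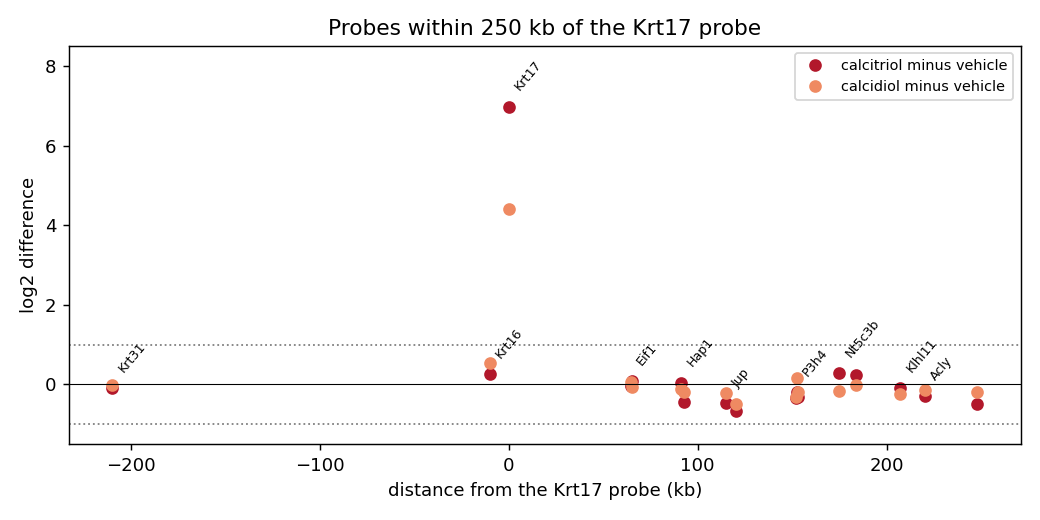
Log2 difference from vehicle of the probes within 250 kb of the Krt17 probe that were well above background on all 3 arrays, by distance from that probe in kb, for calcitriol and calcidiol, with 2-fold as dotted lines. Krt17 stands at 6.98 and 4.42, and every other probe shown lies within 2-fold.

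Genes with log2 differences from vehicle closest in size to those of Krt17 were sought by the Euclidean distance between the pairs of differences. The search covered 3 arrays and 11981 protein-coding genes measured on all of them. Krt17 had the largest measured difference with each hormone, so this distance returns other genes with large differences. It does not compare how the compounds relate to each other. The nearest was Srcin1, which encodes an inhibitor of SRC kinase and also lies on chromosome 11, at a distance of 1.68. Srcin1 differed from vehicle by 5.30 with calcitriol and 4.32 with calcidiol. Between the compounds it was at 0.98, where Krt17 was at 2.56. The next were far off. Slco1a6, an organic anion transporter gene, stood at a distance of 3.67, Cldn2, a tight-junction gene, at 3.69, Spp1, the osteopontin gene, at 3.77, and Cyp1b1, a cytochrome P450 gene, at 4.12. Srcin1 read 621 with calcitriol, 331 with calcidiol and 15.4 with vehicle, so that its vehicle spot, too, was near the lowest signal well above background. Spp1 read 25070, 8938 and 1685 on these arrays, far above background on each.

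Keratin filaments end on desmosomes through linker proteins. Of 15 listed desmosome and cytolinker genes 14 had a probe and 12 were measured, of which 0 were at least 2-fold higher and 3 lower with calcitriol, where 0.961% of all genes were higher and 1.63% lower. The list median was -0.39 with calcitriol and -0.18 with calcidiol, beside -0.004 and -0.01 over all genes. Pkp1, which encodes the plaque protein plakophilin 1, read 131 with calcitriol, 308 with calcidiol and 352 with vehicle, log2 differences of -1.46 ± 0.21 and -0.31 ± 0.20 from vehicle. Ppl, which encodes periplakin, a linker of keratins to desmosomes, read 142, 312 and 354 on the same arrays, at -1.35 ± 0.21 and -0.29 ± 0.20. Eppk1, which encodes epiplakin, a keratin-binding linker, read 304, 550 and 638, at -1.10 ± 0.20 and -0.32 ± 0.20, and its other probe at -1.07 and -0.57. For all 3 genes the calcitriol array was the lowest, and by the other Eppk1 probe calcidiol lay about midway. Pkp1 and Ppl were at least 2-fold lower with calcitriol than with calcidiol, at -1.15 ± 0.21 and -1.06 ± 0.21, but both came under 2-fold with median centring (-0.97 and -0.88), with an offset of 32 (-0.99 and -0.92) and with normexp (-0.87 and -0.77). Ppl came to just under 2-fold below vehicle, at -0.98, with normexp background correction, as did Eppk1 with centring on the median, at -0.98, and with normexp, at -0.93. The highest of the list was Pkp3, another plakophilin, at 0.25 with calcitriol and 0.32 with calcidiol from a dim spot, and Dsc2 and Evpl were not well above background.

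Among 15 other intermediate filament genes, 8 were measured, 0 higher and 1 lower by 2-fold with calcitriol (0.961% and 1.63% of all genes), with a median of -0.13, and -0.05 with calcidiol. Vim, which encodes the vimentin of mesenchymal and cultured cells, read 9905 with calcitriol, 11930 with calcidiol and 9241 with vehicle, at 0.07 ± 0.20 and 0.26 ± 0.20 from vehicle. Vim was thus far above background on every array and close to vehicle with both hormones. Lmnb1, which encodes a nuclear lamin, was the highest with calcitriol, at 0.28, and was at -0.01 with calcidiol. Nes, which encodes nestin, was at -0.63 with calcitriol and -0.33 with calcidiol. Sync, which encodes a filament protein of muscle, was the lowest, at -1.44 ± 0.23 with calcitriol and -0.57 ± 0.22 with calcidiol. With calcitriol it came under 2-fold by an offset of 32, at -0.96, and by normexp, at -0.65.

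Of 15 genes of skin-type differentiation 13 had a probe and 7 were measured, 1 at least 2-fold higher and 0 lower with calcitriol (0.961% and 1.63% of all genes), and the median was -0.13 with calcitriol and -0.06 with calcidiol. The higher gene was Sprr1a, which encodes a small proline-rich protein of the cornified envelope, at signals of 95.2 with calcitriol, 66.0 with calcidiol and 33.9 with vehicle. Its log2 difference was 1.46 ± 0.26 with calcitriol and 0.85 ± 0.27 with calcidiol, and 0.94 and 0.63 with calcitriol by an offset of 32 and by normexp. Scel, which encodes sciellin, another envelope protein, was at 0.53 and 0.24, and its other probes averaged 0.42 and 0.32. Cst6, which encodes a cystatin of the skin, was the lowest with calcitriol, at -0.45, and was at -0.10 with calcidiol. Cnfn, which encodes cornifelin of the envelope, was well above background on both hormone arrays but not on the vehicle array. This bounds it at least 1.24-fold higher in calcitriol cells and at least 1.36-fold higher in calcidiol cells. Its calcidiol signal of 19.6 was under the highest negative control spot on that array, 33.8. Ivl (involucrin) and Tgm1 (a transglutaminase) were well above background on 0 arrays.

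Of 16 epithelial transcription factor genes 10 were measured, 0 higher and 1 lower by 2-fold with calcitriol (0.961% and 1.63% of all genes), with medians of -0.14 with calcitriol and -0.03 with calcidiol. Trp63, which encodes p63, the factor of basal epithelial cells, read 1329 with calcitriol, 1316 with calcidiol and 1349 with vehicle. It was at -0.05 ± 0.20 and -0.15 ± 0.20 from vehicle by the 1 of its 4 probes that was well above background. Ehf, which encodes an ETS factor of epithelia, read 26.5, 49.3 and 84.6 on the 3 arrays, at -1.71 ± 0.27 with calcitriol and -0.89 ± 0.24 with calcidiol, and its other measured probes averaged -1.39 and -1.09. With normexp Ehf was at -0.65 with calcitriol, under 2-fold. Grhl2, Ovol1 and Esrp1 were not well above background.

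Growth factor and hedgehog genes that bear on keratin expression in skin were also read. Of 17 such genes 10 were measured, 0 higher and 1 lower by 2-fold with calcitriol (0.961% and 1.63% of all genes), and the median was -0.34 with calcitriol and -0.26 with calcidiol. The lower gene was Btc, which encodes the EGF receptor ligand betacellulin, at signals of 15.1 with calcitriol, 19.6 with calcidiol and 32.9 with vehicle, -1.15 ± 0.37 and -0.85 ± 0.36 from vehicle, and -0.48 and -0.28 with calcitriol by an offset of 32 and by normexp. Its spot lay 5 rows or columns from the edge. Egfr, the receptor, was at -0.48 and -0.25, and Hbegf, another ligand, at -0.69 and -0.40. Egf was the highest with calcitriol, at 0.43. Gli1, a target and effector of hedgehog signalling, was not well above background. Other hedgehog genes of the list were measured, among them Ptch1, at -0.93 with calcitriol and -0.64 with calcidiol from dim spots. Gli3 was at 0.15 and -0.30. Of 10 genes for proteins that bind keratins or anchor them at the cell surface 8 were measured and 0 were 2-fold apart with either hormone. Of all genes 0.961% were higher and 1.63% lower with calcitriol, and 0.853% and 0.144% with calcidiol, so 0 of 8 is near these shares. With calcitriol the 8 ran from Itgb4, an integrin of hemidesmosomes, at -0.84 to Itga6, its partner, at 0.25. Col17a1, also of the hemidesmosome, had no probe above background.

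**Figure D4:**
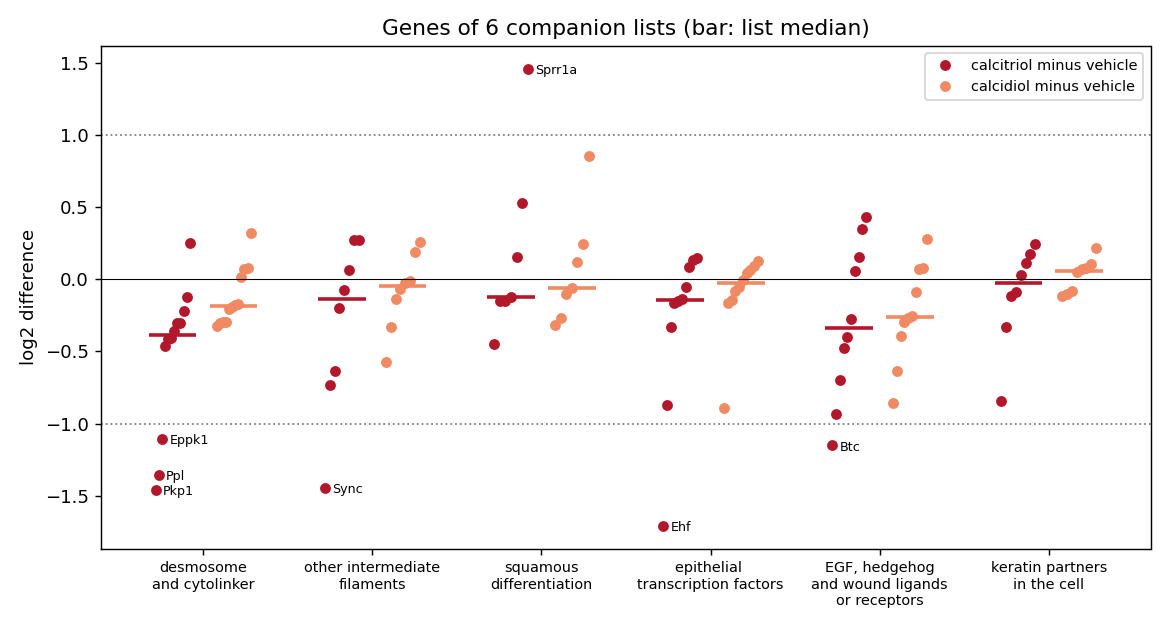
Log2 difference from vehicle of every measured gene of 6 companion lists, for calcitriol and calcidiol, with the list median as a bar and 2-fold as dotted lines. The genes named in the plot are those at least 2-fold from vehicle, 3 of them in the desmosome and cytolinker list, and all of them with calcitriol.

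Markers of other cell types were set beside the keratins. Of 6 markers of basal or squamous epithelium, only Trp63 was well above background, and Krt5, Krt14, Krt6a, Dsg3 and Col17a1 were on none. Of 5 urothelial markers, Upk1a alone was, at 152 with calcitriol, 152 with calcidiol and 158 with vehicle, while Upk1b, Upk2, Upk3a and Upk3b were not. Of 6 collecting duct markers, Aqp2 alone was, at 75.3, 80.4 and 103. The summed signal of the basal list was 1354, 1345 and 1374 on the calcitriol, calcidiol and vehicle arrays, and that of the urothelial list 167, 172 and 170. Each sum is nearly all from 1 gene, Trp63 in the basal list and Upk1a in the urothelial list. The fibroblast list had 2 of 7 genes above background, Col1a1 and Dcn, and its summed signal was 158, 271 and 428, lower with the hormones. Of 5 proximal tubule markers 3 were above background, and they did not move one way. Lrp2, which encodes megalin, was at 1.37 with calcitriol and 0.88 with calcidiol, and its other probes averaged 0.79 and 0.23. Aqp1, a water channel gene, was at -0.69 and -0.61, and Cubn, which encodes cubilin, at -0.18 and -0.02. All 4 leukocyte markers had a probe above background, with summed signals of 1483, 1672 and 1617. For Ptprc this was 1 of 5 probes, for Itgam and for Cd3e 1 of 2, and for Cd68 2 of 3. The 2 Cd68 probes went opposite ways with calcitriol, at -0.31 and 0.67. The endothelial list had Kdr alone, with sums of 78.5, 122 and 134. The part of any such cells in the keratin differences was not tested.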

How the data were processed

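Total RNA was labelled with Cy3 and hybridised to 1-colour Agilent mouse arrays, 1 for each of 3 groups. The scanner files hold spot intensity on a linear scale corrected for background and detrended by the scanner software, which was Agilent Feature Extraction 10.7.1.1 per the file headers and 9.5.1.1 per the submitters' processing notes. The headers place probes on mm9. A deposited table gives each probe's intensity, equalised between arrays (each column has a log2 median of 3.71) by a method not given in the sources used here, and served only as an alternative. The scanner's flag for a spot well above background, a deposited value of another kind, decided what counted as measured.

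Controls were dropped, as was any probe whose spot was marked an outlier (1489 of 56605 probes, 0 of the 13 keratin probes). Signals were log2-transformed after division by each array's 75th percentile (380 for calcitriol, 401 for calcidiol, 371 for vehicle). The keratin genes were found by the array's gene name. Other genes were named by accession (58.29% of probes) in a RefSeq table of GRCm38.p6, otherwise by the array's name. Where a gene had several probes, the brightest of those well above background on both arrays stood for it. Errors combine the deposited signal errors of 2 spots. For bright spots the deposited error is a fixed share of the signal. Repeated spots of the same probe at medium signals had a median standard deviation of 0.17 log2 on the calcitriol array. It was 0.11 on the calcidiol array and 0.12 on the vehicle array. The combined errors cover the scanner only, and the number of arrays limits precision. No test was run, and a 2-fold difference is a description. The members, lists, alternatives and rules for naming genes were chosen with earlier results of these data known. Named genes are the 10 keratins, other keratins above background, list genes 2-fold apart or at the ends of their list, and the 5 genes nearest to Krt17. The probes around Krt17, and some list and marker genes named for their role or to give levels below background, were chosen after values were seen. Some genes of the lists are not reported here.

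Simulated data were used to test the counting of genes, which checks the arithmetic and scanner error and says nothing of spread between cultures. Alternatives were median centring, quantile normalisation, normexp with an offset of 50 on raw signals, 32 added to each signal, looser and stricter filters on dim probes, means over probes, outlier spots kept, the value table, the array edge left out, and thresholds of 1.5-fold and 3-fold. Python 3.11.15 with numpy 2.4.6, pandas 2.3.3 and matplotlib 3.10.9, and R 4.3.3 with limma 3.58.1, were used.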

Additional observations from a re-analysis of the deposited data

How the results depend on the processing

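With 1 array per group, no sample could be left out. All 3 arrays lay on 1 slide in 1 scan, so position on the slide and group cannot be told apart. No paired analysis was possible because each group has 1 sample and the shared replicate number is the same for all. Of 1080 values of 115 differences of named genes other than Krt17 under 10 alternatives, 1049 moved by less than their technical 95% interval, 31 moved by more and 0 turned round a 2-fold difference. Changes of filter, probe means, outliers and the edge leave the value of a gene read by a single spot as it was. Part of the 1049 was thus fixed in advance. The interval also has nearly the same width for all bright genes. Leaving out dim genes removed Krt7 and Krt80, so only 2 keratins were then measured. With each array centred on its median, the all-gene median stood at 0.12, -0.07 and 0.19 for calcitriol against vehicle, calcidiol against vehicle and calcitriol against calcidiol.

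Against vehicle the Krt17 difference moved with the treatment of low signals. It was 4.96 with calcitriol and 2.49 with calcidiol by normexp, and 5.57 and 3.10 with an offset of 32. Under the other alternatives, some of which cannot move a single probe, these differences stayed within the technical interval. Keratins at least 2-fold higher with calcitriol than with calcidiol numbered 1, in place of 2, with normexp, with the offset, without dim genes and at 3-fold.

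For calcitriol against vehicle, 160 genes were higher and 271 lower. The counts were 93 and 104 with normexp, 106 and 138 with the offset, 350 and 634 when 1 detected array sufficed, 93 and 147 without dim genes, 563 and 1041 at 1.5-fold, and 66 and 47 at 3-fold. Higher genes made up 37.1% of those past 2-fold, and 54.8% with median centring, 47.2% with normexp and 43.2% with quantile normalisation. For calcidiol against vehicle, 142 were higher and 24 lower, a share of 85.5%, and 77.6% with median centring. The counts were 76 and 4 with normexp, 77 and 7 with the offset, 452 and 232 when 1 detected array sufficed, 77 and 5 without dim genes, 473 and 221 at 1.5-fold, and 40 and 3 at 3-fold. For calcitriol against calcidiol, 77 were higher and 232 lower. The counts were 133 and 133 with median centring (24.9% higher without it), 34 and 126 with normexp, 48 and 113 with the offset, 229 and 632 when 1 detected array sufficed, 34 and 135 without dim genes, 357 and 915 at 1.5-fold, and 23 and 53 at 3-fold. The causes of these shifts were not tested, beyond the fewer or more genes that a filter or threshold passes by construction.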
